A study of Mus musculus with 12 samples.

Results

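The genes of pyruvate entry and the tricarboxylic acid (TCA) cycle were examined in the adrenal cortex of lean and obese mice. The members were 34 genes chosen by symbol for the step they serve, out of 49585 genes in the count tables. All 34 had enough reads to be tested in every comparison. The data are RNA-seq libraries from the cortex of 12 male C57BL/6J mice, 1 library a mouse and 4 mice a group. Feeding started at the age of 6 weeks and lasted 20 weeks. The first group received a low-fat diet (LFD, which the labels call a normal diet, mice 2, 5, 6, and 7), and the second received a high-fat diet (HFD, mice 1 to 4). The third group received the HFD throughout and icosapent ethyl, the ethyl ester of the omega-3 fatty acid eicosapentaenoic acid, mixed into it for the last 10 weeks (mice 1 to 4). The labels give all 12 mice the genotype *Fads2*-/-, whereas the study's methods describe wild-type mice for these diets. *Fads2* was expressed in all 12, at between 452 and 2182 CPM (counts scaled to a common library size), so the mice are called by their diets. The cortex was dissected from the medulla, and the libraries are bulk RNA of whatever the dissected tissue held.

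Pyruvate, the end product of glycolysis, enters mitochondria through a carrier and is then either oxidized to acetyl-CoA by the pyruvate dehydrogenase complex or carboxylated to oxaloacetate by pyruvate carboxylase. Acetyl-CoA and oxaloacetate form citrate, which the cycle oxidizes stepwise while passing electrons to the respiratory chain. Intermediates also leave the cycle: citrate is a source of acetyl-CoA in the cytosol, where cholesterol is made, and isocitrate and malate give NADPH, which steroid hydroxylases of the adrenal cortex consume. Cholesterol side-chain cleavage and the last hydroxylations of corticosteroids take place inside mitochondria, so the adrenal cortex is rich in them.

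Levels are given as CPM after TMM scaling (edgeR's trimmed mean of M values), with all 12 mice on 1 scale. Per kilobase of exon, the only scale on which different genes are compared here, *Mdh1* had the highest mean level in LFD mice (186 CPM per kb), followed by *Idh1* (168) and *Sdha* (133). The cytosolic malate and isocitrate dehydrogenases and the flavoprotein subunit of succinate dehydrogenase thus headed the list. The lowest were *Pdk4* (2.48), *Pdk1* (4.78), and *Ogdhl* (6.48), namely a pair of kinases that switch off pyruvate dehydrogenase and the minor form of 2-oxoglutarate dehydrogenase. In HFD mice *Idh1* (240 CPM per kb) stood above *Mdh1* (203). The coefficient of variation between the 4 LFD mice ranged from 3.42% for *Pdk1* to 46.9% for *Pdp1*. Every member had at least 243 counts in every library.

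**Figure D1:**
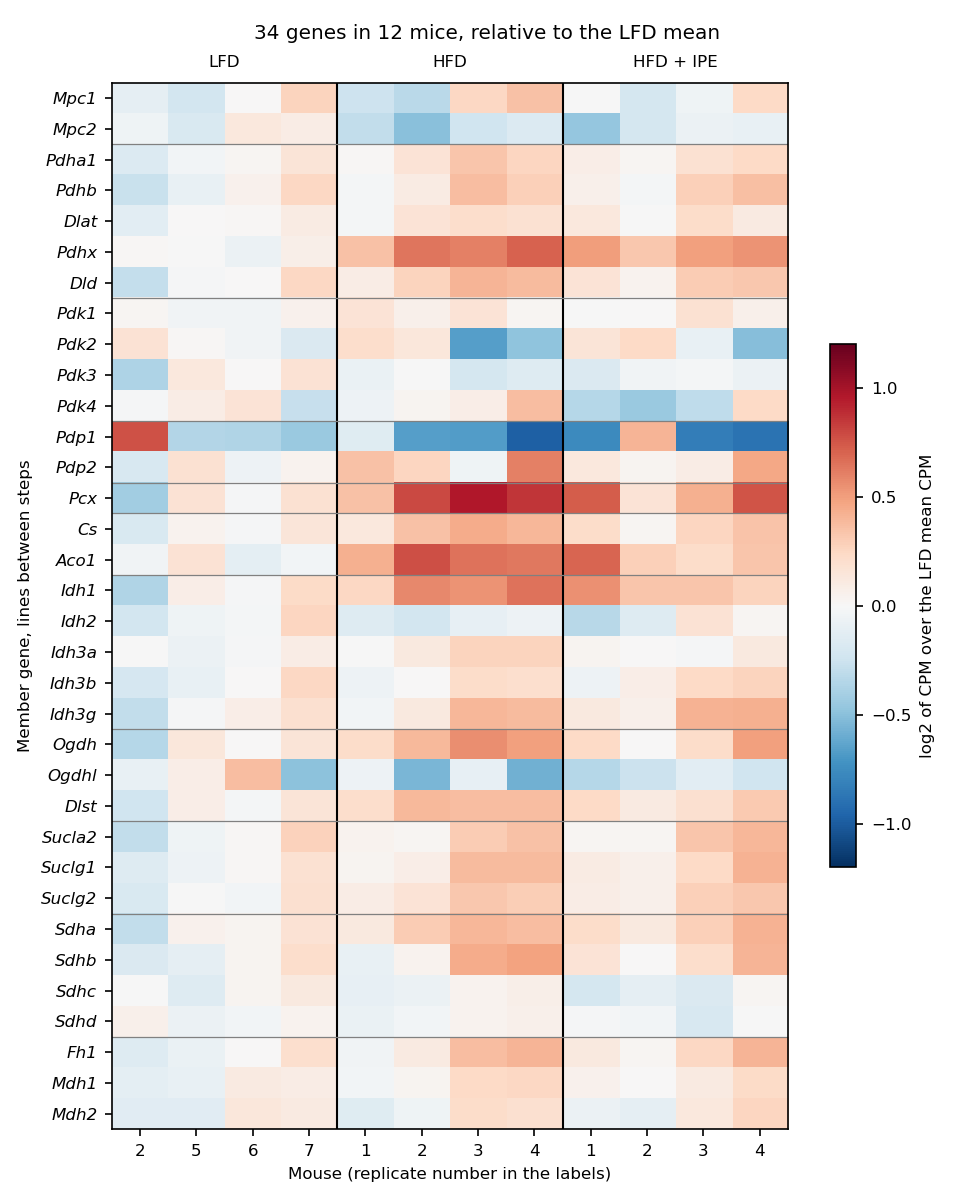
Level of each of the 34 genes (rows, lines between steps) in each of the 12 mice (columns, by group and replicate number, HFD + IPE being the icosapent ethyl–treated mice) as log2 of the CPM over the mean CPM of the LFD mice. *Pdhx*, *Pcx*, *Aco1*, and *Idh1* were above the LFD mean in all 4 HFD mice, *Sdhc* and *Sdhd* stayed near it, and *Pdp1* was far higher in LFD mouse 2 (149 CPM) than in the other LFD mice.

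Library totals lay between 34785979 and 67295963 counts on genes. Markers of the adrenal cortex were abundant in every mouse (*Star*, which carries cholesterol into mitochondria, at 6842 CPM or more), but chromaffin cells of the medulla were also represented, with 12 of 12 markers detected and *Th*, the first enzyme of catecholamine synthesis, at 114 CPM or more. The summed chromaffin markers ranged from 6281 to 22139 CPM in LFD, from 3035 to 9818 CPM in HFD, and from 5425 to 10720 CPM in icosapent ethyl–treated mice. All 12 were lower in HFD than in LFD mice (median -1.24 on the log2 scale), and 0 passed the threshold of an adjusted p below 0.05. The 10 cortex markers, summing to between 49179 and 77788 CPM in LFD and between 61583 and 108215 CPM in HFD mice, were all higher in HFD mice (median 0.42, 0 past the threshold). Of 8 macrophage markers, 7 were lower in HFD mice, 4 of them past the threshold, with sums of 722 to 1085 CPM in LFD and 506 to 611 CPM in HFD mice. Adipocyte markers summed to between 252 and 504 CPM over the LFD and HFD mice, with 7 of 10 higher in HFD mice. Blood markers were lower for 5 of 5 genes, and skeletal muscle markers summed to at most 1.71 CPM in any mouse, with *Tnnt3* and *Myh4* at 0 in at least 1 of them. The 7 early response genes summed to 184 to 2215 CPM in LFD mice. They summed to 4110, 5064, 699, and 376 CPM in HFD mice 1 to 4, and to 4496, 1863, 3062, and 575 CPM in icosapent ethyl–treated mice 1 to 4. The adipocyte and chromaffin lists were used as covariates. The chromaffin markers differed with diet, so a fit with them as covariate cannot separate their part from that of diet. The part of the other lists in the results was not tested.

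The first comparison, HFD versus LFD mice, asks how diet-induced obesity changed these genes. *Pdhx* and *Aco1* rose in HFD mice, by 1.49-fold and 1.53-fold, and no member fell past the threshold. *Pdhx* encodes the protein that tethers the last subunit of the pyruvate dehydrogenase complex to its core, and *Aco1* encodes cytosolic aconitase, which turns citrate into isocitrate and, without its iron-sulfur cluster, binds iron-responsive RNA elements. By the quasi-likelihood test of edgeR, adjusted after Benjamini and Hochberg over 15909 genes, both had an adjusted p of 0.0376. These were 2 of 34 members called higher, against 0.974% of all genes, and 0 called lower, against 0.471%. Of the 34 members, 26 had a log2 fold change above 0, compared with 48.2% of all genes tested, and their median was 0.18, compared with -0.01 over all genes. At an unadjusted p below 0.05, 10 members were higher (12.4% of all genes) and 1 was lower (12.5%). The groups did not overlap in 6 members with HFD higher (7.71% of all genes) and in 0 with HFD lower (5.82%). DESeq2, the tool named in the study's methods, called the same 6, *Pdhx*, *Aco1*, *Pcx*, *Idh1*, *Dlst*, and *Ogdh*, all higher (6.12% of all genes called higher).

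The calls depended on single mice. *Pdhx* and *Aco1* both lost their call when any mouse other than HFD replicate 1 was left out, with log2 fold changes from 0.53 to 0.59 and from 0.57 to 0.68 in those fits, when 0 members passed. The number of all genes called moved in the same way, to 78 without LFD replicate 2 and to 0 without each of the other 6, from 230 with all 8 mice. Without HFD replicate 1, 5 members passed, adding *Pcx*, *Idh1*, and *Cs*, among 918 of 16096 genes called. With the mean of the chromaffin markers as a covariate, 0 of 34 members and 0 of all genes passed, the median of the members was 0.11, and *Pdhx* and *Aco1* were at 0.46 (adjusted p = 0.366) and 0.53 (adjusted p = 0.365). With library totals in place of TMM factors, 0 members passed and 21 of 34 were above 0, in a fit where the median of all genes was -0.11. The median of the members lay 0.20 above that of all genes under both scalings, 0.13 above it without LFD replicate 2, and 0.08 above it with the chromaffin covariate. Because the chromaffin markers were themselves lower in HFD mice, the fit with this covariate cannot tell their part from that of diet. In bulk RNA, fewer cells of a type and less RNA per cell cannot be told apart.

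**Figure D2:**
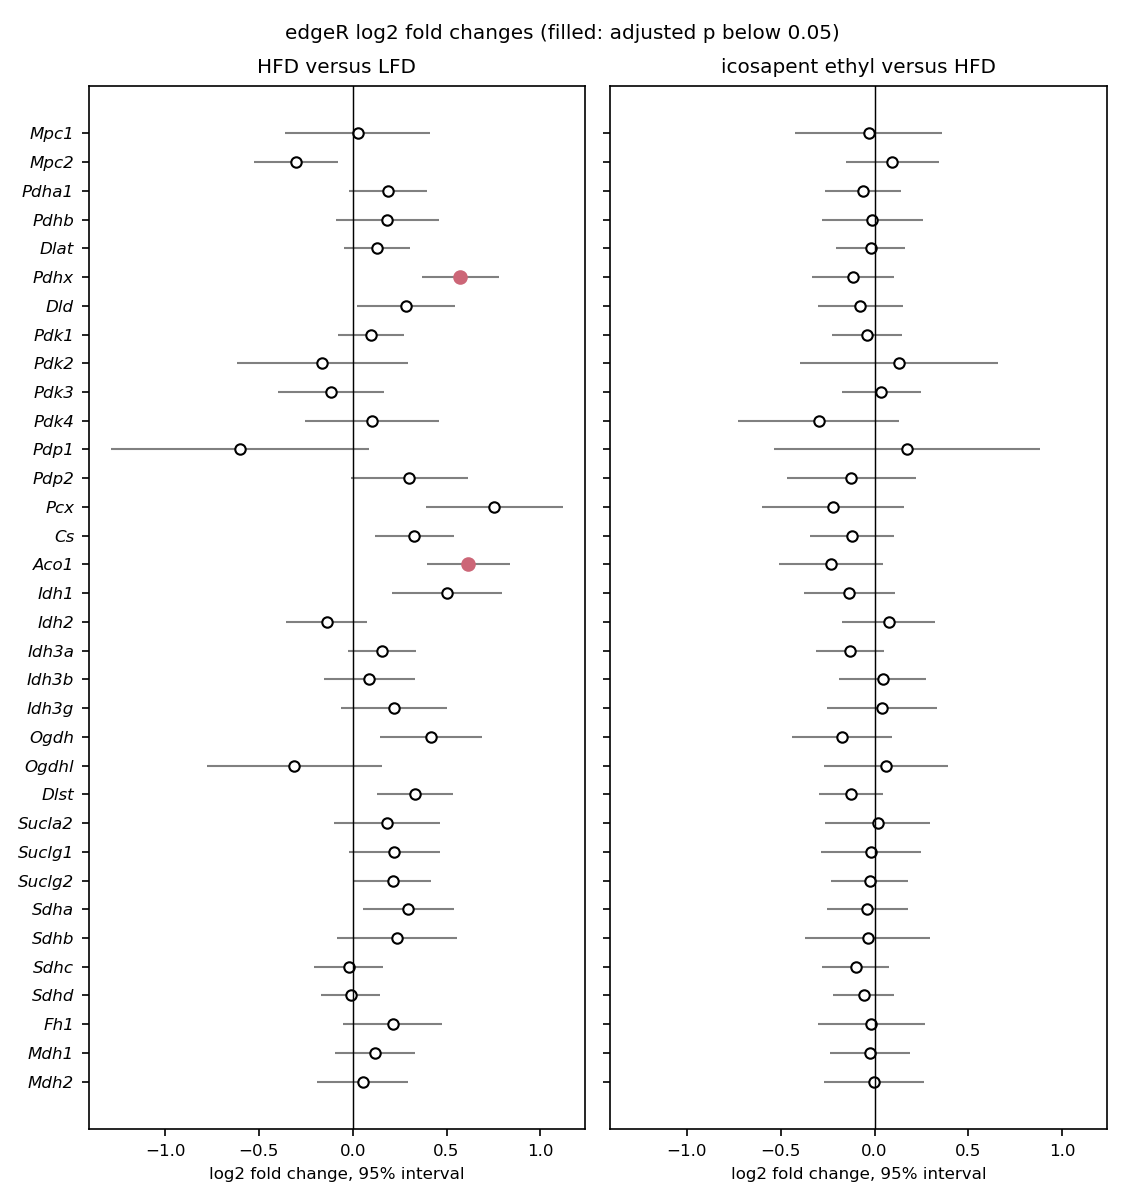
edgeR log2 fold change of each member with its 95% confidence interval in HFD versus LFD mice (left) and in icosapent ethyl–treated versus HFD mice (right), with filled points for an adjusted p below 0.05. *Pdhx* and *Aco1* are filled on the left, and no gene is filled on the right, where the intervals of all 34 members cross 0.

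Within the pyruvate dehydrogenase complex, *Pdhx* was at 38.2, 37.7, 36.1, and 39.7 CPM in LFD mice 2, 5, 6, and 7 and at 48.4, 59.3, 57.6, and 61.9 CPM in HFD mice 1 to 4. The lowest HFD mouse was above the highest LFD mouse, and the LFD mice were within 4 CPM of each other. The log2 fold change was 0.57 with a standard error (SE) of 0.09. Its partners differed less and overlapped between the groups. *Pdha1* and *Pdhb*, the subunits that decarboxylate pyruvate, had log2 fold changes of 0.19 (SE 0.09, adjusted p = 0.240 in edgeR) and 0.18 (SE 0.12). *Dlat*, the acetyltransferase core into which the *Pdhx* product is built, was at 0.13 (SE 0.08), and *Dld*, the dihydrolipoamide dehydrogenase shared with other complexes, was at 0.28 (SE 0.12, adjusted p = 0.175). Over the 5 genes, the geometric mean relative to LFD was 1.22 ± 0.11 (SD, n = 4) in HFD mice.

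The annotated start regions of the called genes and of *Pcx*, the member with the largest log2 fold change, are shown to place them in the genome. They run from 250 bases before to 50 bases after the start of the RefSeq transcript (GRCm38.p6), 5′ to 3′ on the gene's strand, with capitals marking matches to CCAAT, the sequence bound by nuclear factor Y, on either strand. *Pdhx* lies on chr2:103073464-103073763 (minus strand), *Aco1* on chr4:40143015-40143314 (plus strand), and *Pcx* has an upstream start at chr19:4510222-4510521 and a downstream start at chr19:4594069-4594368 (plus strand), which the counts per gene do not separate.
Pdhx: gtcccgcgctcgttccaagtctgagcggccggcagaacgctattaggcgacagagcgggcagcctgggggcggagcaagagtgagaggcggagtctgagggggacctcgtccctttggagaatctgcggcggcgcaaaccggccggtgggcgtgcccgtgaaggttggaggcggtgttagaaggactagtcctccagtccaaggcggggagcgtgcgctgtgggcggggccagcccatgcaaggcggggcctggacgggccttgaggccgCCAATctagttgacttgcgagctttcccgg
Aco1: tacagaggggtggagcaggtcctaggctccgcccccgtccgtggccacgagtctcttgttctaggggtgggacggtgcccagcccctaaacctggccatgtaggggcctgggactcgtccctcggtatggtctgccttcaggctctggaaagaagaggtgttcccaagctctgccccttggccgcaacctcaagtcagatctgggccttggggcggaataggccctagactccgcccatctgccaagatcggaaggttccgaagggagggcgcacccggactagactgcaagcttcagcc
Pcx, upstream start: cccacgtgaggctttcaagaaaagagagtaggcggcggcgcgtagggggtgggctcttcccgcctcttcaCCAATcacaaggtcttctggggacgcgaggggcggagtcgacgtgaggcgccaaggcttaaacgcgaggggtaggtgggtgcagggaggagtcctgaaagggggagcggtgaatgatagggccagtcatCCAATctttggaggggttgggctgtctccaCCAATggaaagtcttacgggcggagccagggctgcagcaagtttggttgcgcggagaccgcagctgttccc
Pcx, downstream start: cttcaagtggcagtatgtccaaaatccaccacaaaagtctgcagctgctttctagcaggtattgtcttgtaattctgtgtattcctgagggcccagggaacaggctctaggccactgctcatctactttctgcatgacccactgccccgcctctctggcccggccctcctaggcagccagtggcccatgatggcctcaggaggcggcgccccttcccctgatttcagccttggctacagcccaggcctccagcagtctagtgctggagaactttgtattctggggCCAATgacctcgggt
The window of *Pdhx* held 1 such match, that of *Aco1* none, and those of *Pcx* 3 and 1. RefSeq start regions were at hand for 31 of the 34 members (not for *Idh3a*, *Sdhc*, and *Pdp1*). CCAAT occurred in 20 of these 31 (64.5%), compared with 42.2% of the 11656 tested genes with a start region and 41.1% of all 27025 genes. GGGGCGGGG, bound by SP1, occurred in 9 members (29.0%), compared with 23.8% of the tested genes and 12.9% of all genes. TCAAGGTCA, read by the estrogen-related receptors that act on many mitochondrial genes, was found in *Sdhd* alone (3.23% of members, 0.360% of tested genes, 0.466% of all). The shorter CAAGGTCA inside it, bound by steroidogenic factor 1, was found in *Ogdh* and *Sdhd* (6.45%, compared with 1.40%, and 1.76% of all). GCATGCGC, bound by NRF1, was in 2 members (6.45%, compared with 5.47%, and 3.05% of all), TGACGTCA, bound by CREB, in 2 (6.45%, compared with 3.43%, and 2.03% of all), and CCGGAAGT, bound by GABPA, in 1 (3.23%, compared with 8.23%, and 4.31% of all). A gene was counted if any of its start regions held a match, so genes with more starts had more sequence to match. *Ogdh*, with several start regions, was among the matches for CCAAT, SP1, steroidogenic factor 1, NRF1, and CREB. A match in this window is a description of the letters and shows no binding.

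The start of *Pdhx* lies 162 bases from that of *Apip*, a methionine salvage enzyme gene on the opposite strand. *Apip* was at between 21.7 and 25.9 CPM in LFD mice and between 21.3 and 25.7 CPM in HFD mice, a log2 difference of -0.04 (SE 0.10, adjusted p = 0.833 in edgeR). Of the 34 members, 10 had such a divergent neighbour starting within 250 bases, all 10 neighbours were tested, and 0 passed the threshold. *Idh1*, paired with *Pikfyve* at 183 bases, had the neighbour with the largest positive log2 fold change (0.40, SE 0.16, adjusted p = 0.165). These neighbours were looked up after the values of the members were known.

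Pyruvate enters through a carrier of 2 subunits, of which neither passed the threshold. *Mpc2* was at 91.7, 83.9, 104, and 102 CPM in LFD mice and at 77.4, 67.5, 80.6, and 85.3 CPM in HFD mice. Only 1 HFD mouse reached the LFD range. Its log2 fold change was -0.30 (SE 0.10), with an unadjusted p of 0.0131 and an adjusted p of 0.117 in edgeR, so it did not pass. *Mpc1* was at 0.03 (SE 0.17), with 42.3 to 67.6 CPM in HFD mice around the LFD range of 45.6 to 64.0 CPM.

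The kinases that phosphorylate and silence pyruvate dehydrogenase gave no call. *Pdk1* to *Pdk4* had log2 fold changes of 0.10, -0.16, -0.12, and 0.10, with SEs from 0.08 to 0.20. Per kilobase, *Pdk2* made up the largest share of the 4 kinases, at 50.9 ± 4.50% (SD, n = 4) in LFD, 47.7 ± 7.11% in HFD, and 50.9 ± 6.91% in icosapent ethyl–treated mice. *Pdk4*, a gene known to be induced by fasting and fatty acids in muscle and liver, made up 7.37 ± 0.85%, 8.66 ± 2.19%, and 6.80 ± 2.31%. *Pdk2* was at 62.7, 59.5, 34.2, and 38.9 CPM in HFD mice, compared with 48.2 to 61.4 CPM in LFD mice, so that the HFD mice lay on both sides of the LFD range.

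The phosphatases that reactivate the complex had opposite signs. *Pdp2* was at 0.30 (SE 0.14, adjusted p = 0.212 in edgeR) and *Pdp1* at -0.60 (SE 0.30, adjusted p = 0.254). In LFD mouse 2, *Pdp1* was at 149 CPM, compared with 68.6, 68.3, and 64.6 CPM in the other LFD mice and 79.1, 55.4, 55.0, and 44.6 CPM in HFD mice. Without that mouse, the log2 fold change was -0.20.

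Pyruvate carboxylase, the alternative entry that refills oxaloacetate, had the largest log2 fold change of all members. *Pcx* was at 233, 351, 307, and 352 CPM in LFD mice and at 396, 539, 606, and 563 CPM in HFD mice. The groups did not overlap, although HFD mouse 1 was close to the LFD range. At 0.75 (SE 0.16) on the log2 scale, it had an adjusted p of 0.0553 in edgeR, just above the threshold, and of 0.00358 in DESeq2.

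In the step from citrate synthase to isocitrate, *Aco1* was at 63.4, 73.7, 60.5, and 64.0 CPM in LFD mice and at 87.9, 112, 103, and 102 CPM in HFD mice. No HFD value fell into the LFD range, and the log2 fold change was 0.62 (SE 0.10). *Cs*, the mitochondrial enzyme that joins acetyl-CoA to oxaloacetate, was at 187 to 234 CPM in LFD and 233 to 290 CPM in HFD mice, which overlapped by 1 mouse. Its log2 fold change was 0.33 (SE 0.09, adjusted p = 0.0896 in edgeR).

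None of the isocitrate dehydrogenases passed the threshold in edgeR. *Idh1*, the cytosolic NADPH-forming enzyme, was at 364, 494, 461, and 548 CPM in LFD mice and at 556, 694, 678, and 732 CPM in HFD mice. The groups were separated by the narrow gap between LFD mouse 7 and HFD mouse 1. On the log2 scale it was 0.50 (SE 0.13) higher, with adjusted p-values of 0.0765 in edgeR and 0.0255 in DESeq2. *Idh2*, the mitochondrial NADPH-forming enzyme, was at -0.14 (SE 0.10), with overlapping ranges of 139 to 194 CPM in LFD and 139 to 156 CPM in HFD mice. The NAD-linked *Idh3a*, *Idh3b*, and *Idh3g*, the subunits of the cycle's own enzyme, were at 0.16, 0.09, and 0.22 (SEs 0.08, 0.11, and 0.13).

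The 2-oxoglutarate dehydrogenase complex converts 2-oxoglutarate to succinyl-CoA. *Ogdh*, its first subunit, was at 412, 574, 525, and 583 CPM in LFD mice and at 612, 687, 770, and 738 CPM in HFD mice. *Dlst*, its succinyltransferase core, was at 161, 200, 186, and 211 CPM in LFD mice and at 220, 248, 245, and 246 CPM in HFD mice. Both were without overlap, with log2 fold changes of 0.42 (SE 0.12, adjusted p = 0.0933 in edgeR) and 0.33 (SE 0.09, adjusted p = 0.0825). *Ogdhl*, the paralog of *Ogdh* with a low level here, was at -0.31 (SE 0.21), with 19.1 to 34.8 CPM in LFD and 18.1 to 25.8 CPM in HFD mice.

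**Figure D3:**
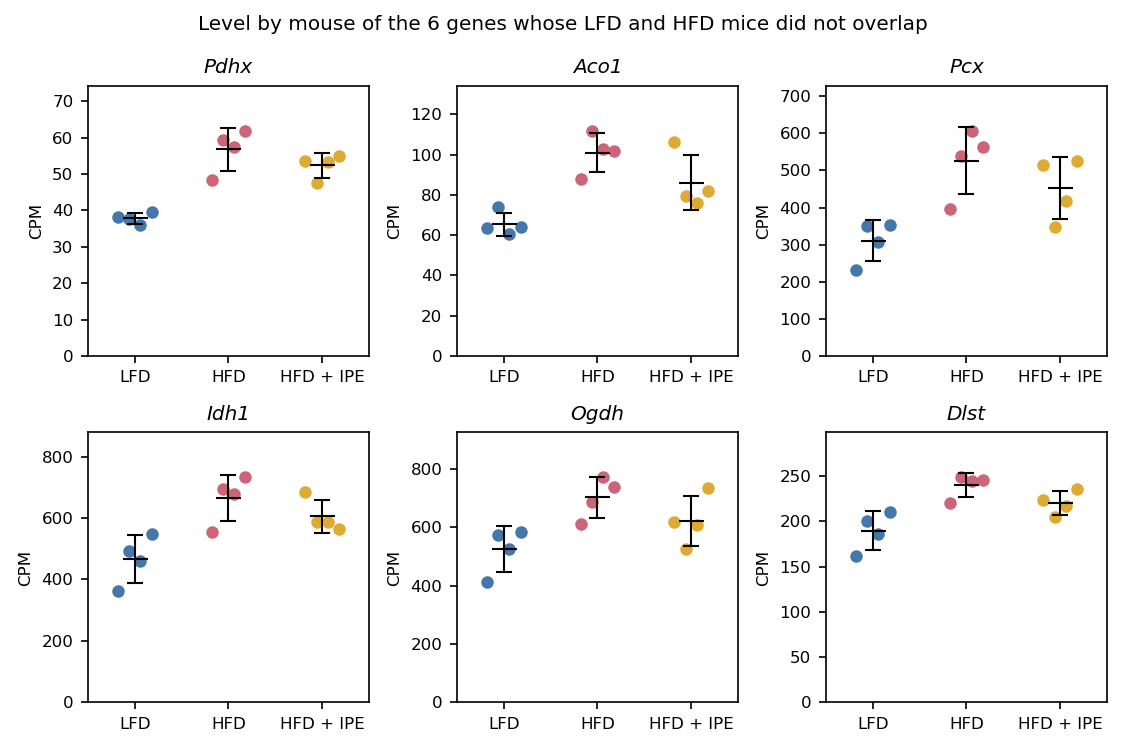
CPM in each mouse (points) with the mean and SD of each group (bars, n = 4) for *Pdhx*, *Aco1*, *Pcx*, *Idh1*, *Ogdh*, and *Dlst*, on axes that start at 0. In each panel all 4 HFD mice are above all 4 LFD mice, and the mice given HFD with icosapent ethyl (HFD + IPE) overlap the HFD mice.

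The later steps gave no call. Succinyl-CoA ligase, which makes ATP or GTP at substrate level, had log2 fold changes of 0.18 for *Sucla2*, 0.22 for *Suclg1*, and 0.21 for *Suclg2*, with SEs from 0.09 to 0.12. Succinate dehydrogenase, which is also complex II of the respiratory chain, was uneven. *Sdha*, the flavoprotein, was at 0.30 (SE 0.11, adjusted p = 0.145 in edgeR) and *Sdhb*, the iron-sulfur subunit, at 0.23 (SE 0.14). The membrane anchors *Sdhc* and *Sdhd* were at -0.02 and -0.01, with 95% confidence intervals from -0.20 to 0.16 and from -0.17 to 0.15. Fumarase (*Fh1*) was at 0.21 (SE 0.12), and the cytosolic and mitochondrial malate dehydrogenases *Mdh1* and *Mdh2* were at 0.12 (SE 0.09) and 0.05 (SE 0.11). None of these 10 genes passed, and the groups overlapped in each of them.

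In the averages by step each gene had equal weight, so that *Ogdhl* counted as much as *Ogdh*, and *Idh1* as much as each *Idh3* gene. Averaged in this way, the level relative to LFD was 1.72 ± 0.30 (SD, n = 4) in HFD mice for *Pcx*, 1.40 ± 0.12 for *Cs* and *Aco1*, 1.13 ± 0.10 for the isocitrate dehydrogenases, and 1.12 ± 0.07 for the 2-oxoglutarate dehydrogenase complex. It was 1.17 ± 0.13 for succinyl-CoA ligase, 1.10 ± 0.10 for succinate dehydrogenase, and 1.10 ± 0.13 for fumarase and the malate dehydrogenases. The carrier was at 0.92 ± 0.15, the kinases at 0.99 ± 0.07, and the phosphatases at 0.93 ± 0.13. Over all 34 genes it ranged from 0.920 to 1.08 in LFD mice and from 1.04 to 1.18 in HFD mice, which overlapped. HFD mouse 1 had the lowest value of the HFD mice, and LFD mouse 2 the lowest of the LFD mice.

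**Figure D4:**
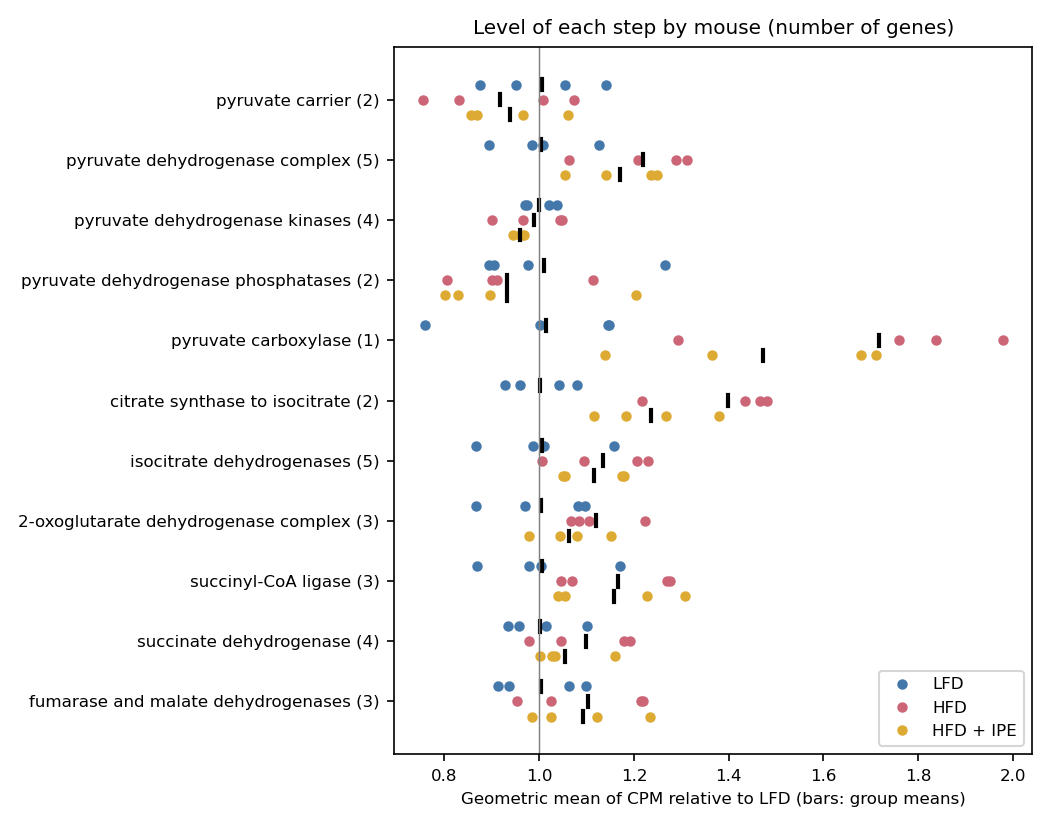
Geometric mean CPM of the genes of each step in each mouse relative to the LFD mice (x axis, linear scale), with a bar at each group mean and the number of genes in parentheses. The means of the HFD mice lie at 1.72 for pyruvate carboxylase and 1.40 for citrate synthase to isocitrate, which holds mitochondrial *Cs* and cytosolic *Aco1*. The means of the HFD mice for the carrier, the kinases, and the phosphatases lie below 1.

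Ratios within a mouse show the balance between subunits and isoforms without a scaling factor. They are levels per kilobase, were chosen after the values of the genes were known, and were given no test. *Pdhx* over *Dlat* was 0.525 to 0.612 in LFD mice, 0.724 to 0.802 in HFD mice, and 0.673 to 0.752 in icosapent ethyl–treated mice. The LFD mice lay apart from both groups on HFD. *Pdhx* over *Pdha1* behaved likewise, at 0.168 to 0.203, 0.217 to 0.252, and 0.221 to 0.241. In contrast, *Pdha1* over *Pdhb* overlapped in all 3 groups (means 1.61 ± 0.10, 1.61 ± 0.05, and 1.56 ± 0.09). *Idh1* over *Idh2* was 2.44 to 2.95 in LFD, 3.57 to 4.65 in HFD, and 3.72 ± 0.88 (SD, n = 4) in icosapent ethyl–treated mice. *Sdha* over *Sdhc* was 1.53 to 2.15, 2.17 to 2.42, and 2.18 to 2.57. *Pcx* over *Cs* was 1.51 to 1.95 in LFD and 2.07 to 2.54 in HFD mice, and *Mdh1* over *Mdh2* overlapped (2.22 to 2.33 and 2.30 to 2.44).

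**Figure D5:**
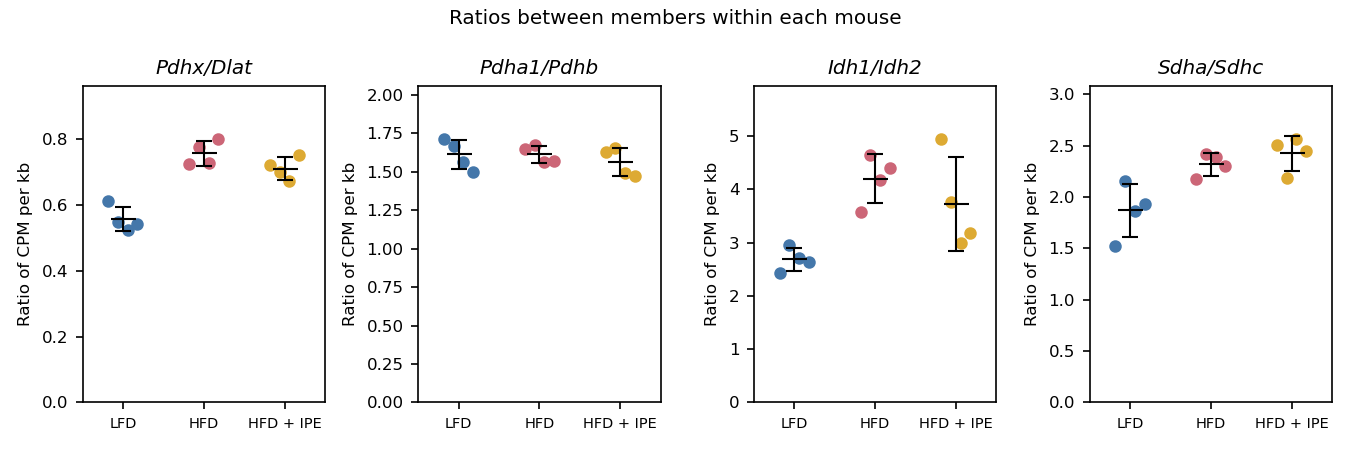
Ratio of the levels per kilobase of exon of pairs of members within each mouse (points), with the mean and SD of each group (bars, n = 4), on axes that start at 0. For *Pdhx*/*Dlat*, *Idh1*/*Idh2*, and *Sdha*/*Sdhc* every HFD and HFD + IPE mouse is above every LFD mouse, whereas *Pdha1*/*Pdhb* overlaps.

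The second comparison, icosapent ethyl–treated versus HFD mice, asks whether the supplement changed these genes in mice that stayed on the HFD. No member passed the threshold in edgeR, and none of the 15913 genes tested did (0.0%). At an unadjusted p below 0.05 there were 0 members (1.39% of all genes). DESeq2 called 0 members (7 of the 26076 genes it fitted), and 0 members were without overlap between the groups (1.14% of all genes). The log2 fold changes ran from -0.30 for *Pdk4* (SE 0.19) to 0.17 for *Pdp1* (SE 0.31), with a median of -0.03, and 9 of 34 were above 0 (51.1% of all genes). This number changed with the fit, in both directions. It was 22 of 34 with library totals in place of TMM factors, 17 with the chromaffin covariate, and 6 with the adipocyte covariate. Leaving out 1 mouse gave 18 (icosapent ethyl replicate 2), 17 (HFD replicate 3), 15 (HFD replicate 4), and 14 (icosapent ethyl replicate 1). The number was 7 without HFD replicate 2 and 6 without HFD replicate 1, icosapent ethyl replicate 3, or icosapent ethyl replicate 4. Over all fits that left out 1 mouse, the median ran from -0.09 to 0.01. *Aco1* had the lowest unadjusted p (0.0916), at a log2 fold change of -0.23 (SE 0.12) and an adjusted p of 0.9997 in edgeR, with 106, 79.6, 76.0, and 82.2 CPM in icosapent ethyl–treated mice 1 to 4. Mouse 1 was within the HFD range, and the others were below it. *Pcx* was at -0.22 (SE 0.17) and *Pdhx* at -0.11 (SE 0.10). For 29 of the 34 members, the 95% confidence interval lay within 0.5 of 0 on either side. The exceptions were *Pdk2*, *Pdk4*, *Pdp1*, *Pcx*, and *Aco1*, whose intervals reached beyond 0.5 on at least 1 side. The chromaffin markers were higher in icosapent ethyl–treated than in HFD mice for 12 of 12 genes (median 0.58, 0 past the threshold), and with their mean as a covariate the median of the members was 0.00. All 10 cortex markers (median -0.13) and all 6 endothelial markers (median -0.19) were lower. Of 6 mesothelial markers, 5 were higher (median 1.52), with sums of 13.6 to 21.6 CPM in HFD and 14.2 to 34.9 CPM in treated mice. None of these passed the threshold, and the part of these 3 lists was not tested.

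The third comparison sets icosapent ethyl–treated against LFD mice, that is, the HFD with the supplement against the lean controls, and it shares its LFD mice with the first comparison. Again 0 members passed in edgeR (0.0% of the 15935 genes tested), with 5 at an unadjusted p below 0.05, all higher. At that p stood 14.0% of all genes, 1162 of them higher and 1063 lower. DESeq2 called 1, *Pdhx* (1.4% of all genes called higher). *Pdhx*, at 53.7, 47.5, 53.5, and 55.1 CPM in the treated mice, was above all LFD mice, by 0.47 on the log2 scale (SE 0.08, adjusted p = 0.153 in edgeR). *Aco1* at 0.40 (SE 0.12, adjusted p = 0.256) and *Idh1* at 0.38 (SE 0.13, adjusted p = 0.270) were also without overlap, making 3 members in all (4.04% of all genes). *Pcx* was at 349 to 524 CPM in treated mice, overlapping the LFD range, and 0.54 higher on the log2 scale (SE 0.17, adjusted p = 0.262). Of the 34 members, 25 were above 0 (49.4% of all genes), with a median of 0.16. The number at an unadjusted p below 0.05 was 3 without icosapent ethyl replicate 1, 12 without icosapent ethyl replicate 2, and 15 without LFD replicate 7. The share of all genes at that p in these fits is not given here, so the change in number is no result about the members alone. The median was 0.09 without LFD replicate 2. All 12 chromaffin markers were lower in treated than in LFD mice (median -0.71), as were all 8 macrophage markers (median -0.60), with 0 past the threshold in edgeR. With the mean of the chromaffin markers as a covariate, the median of the members was 0.07, and 23 of 34 were above 0. The part of the macrophage markers was not tested.

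Of 47 further genes around the pathway, which carry cycle acids across the membrane, feed or drain the cycle, build its cofactors, or regulate it, 46 were tested and 0 passed in HFD versus LFD mice. At an unadjusted p below 0.05, 8 were higher (12.4% of all genes) and 5 lower (12.5%), and DESeq2 called 4 higher (6.12%) and 2 lower (6.22%). The median log2 fold change was 0.09. The 3 with the lowest p were *Slc25a10*, the dicarboxylate carrier, at 0.42 (SE 0.09, adjusted p = 0.0587 in edgeR), *Ldhb*, the lactate dehydrogenase subunit associated with lactate use, at -0.68 (SE 0.16, adjusted p = 0.0620), and *Hif1a*, the oxygen-regulated transcription factor subunit, at 0.51 (SE 0.13, adjusted p = 0.0753). *Slc25a10* was at 89.6, 103, 104, and 113 CPM in LFD mice and at 119, 141, 147, and 145 CPM in HFD mice. *Ldhb* was at 104, 93.2, 105, and 111 CPM in LFD mice and at 79.4, 75.8, 49.5, and 54.1 CPM in HFD mice. *Hif1a* was at 65.1 to 77.0 CPM in LFD mice and at 83.5 to 127 CPM in HFD mice. In these 3 genes the groups did not overlap. Of the 46 genes, 3 were without overlap with HFD higher (7.71% of all genes) and 3 with HFD lower (5.82%). In icosapent ethyl–treated versus HFD mice, 0 of the 46 passed in edgeR (0.0% of all genes) or DESeq2 (7 of 26076 genes). At an unadjusted p below 0.05 in edgeR there were 0 of them (1.39% of all genes).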

How the data were processed

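RNA of the adrenal cortex of 12 mice, 4 per group, was sequenced from stranded total RNA libraries. The authors trimmed adaptors with cutadapt, aligned the reads to GRCm38 with STAR, counted them on the GENCODE genes of the release M12 with HTSeq 0.6.1p1 (reverse strand, union mode, minimum quality 20), and deposited 1 read count per gene and mouse. Symbols and coordinates came from GENCODE M21 (49326 of 49585 identifiers matched). No exon of a member overlapped an exon of another gene on its strand. Groups were taken from the labels. No pair of the 66 library pairs was identical (lowest chi-square per degree of freedom 24.5). Nothing in the labels gives cages or litters. The tests took each mouse as independent, and a shared cage or litter could not be taken into account.

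Each pair of groups was fitted with edgeR 4.0.16 in R 4.3.3 (TMM, filterByExpr with a minimum count of 10, robust quasi-likelihood F test, Benjamini-Hochberg adjustment over all genes tested, threshold 0.05). Confidence intervals are 95% intervals. Between 15909 and 15935 genes passed per comparison, and 16262 over all mice. Totals of 34785979 to 67295963 counts gave at least 243 counts per member and mouse, where counting alone gives a standard error of 6.42%. The members and gene lists were chosen with earlier results of these data known. All members were named. Of the other pathway genes, those past the threshold, or otherwise the 3 with the lowest p in HFD versus LFD mice, were named. *Mmut* was not matched by symbol, 1 gene counted with them is not reported here, and *Slc25a21* had too few counts. Start regions came from RefSeq (GRCm38.p6) through the table provided.

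The alternatives were DESeq2 1.42.0, its size factors, library totals, no filter on low counts, 10 counts in every mouse, a joint fit of all 12 mice, adipocyte or chromaffin markers as a covariate, a threshold of 0.1, a replicate block, and leaving out each mouse. HFD and icosapent ethyl–treated mice share the numbers 1 to 4. After subtraction of the group means, mice with the same number correlated at 0.240, 0.116, 0.340, and 0.632 across genes, which is why the block was fitted. Mice with different numbers correlated at -0.634 to 0.598, and HFD mouse 1 correlated more with treated mouse 2 (0.598) than with treated mouse 1. The procedure was tested on simulated data for HFD versus LFD mice. Of 200 genes that were changed (median log2 fold change 1.03 where raised), 99 (49.5%) were called, with 2 false calls among 15909 genes. With 0 genes changed, 1 was called.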

Additional observations from a re-analysis of the deposited data

Results flagged for a closer look

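In 102 sets of 4 mice (34 genes in 3 groups), 1 mouse stood apart from the other 3 in 4 sets by Dixon's test of the gap over the range, where chance gives about 1 in 20. *Pdp1*, the calcium-sensitive phosphatase of pyruvate dehydrogenase, was at 149 CPM in LFD replicate 2 (others 64.6 to 68.6 CPM) and at 116 CPM in icosapent ethyl replicate 2 (others 47.4 to 51.5 CPM). *Pdk4* was at 10.3 CPM in icosapent ethyl replicate 4 (others 6.40 to 7.06 CPM). *Dlst* was at 220 CPM in HFD replicate 1, below the others at 245 to 248 CPM.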

How the results depend on the processing

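In HFD versus LFD mice, 2 members passed as reported, and the number called was 6 with DESeq2, 10 with the adipocyte covariate, 7 at an adjusted p below 0.1, 0 with the chromaffin covariate, 0 with library totals, and 0 to 5 when 1 mouse was left out. It was 5 without HFD replicate 1 and 0 without each of the other 7 mice. The number of all genes called also moved, from 230 of 15909 to 2361 with the adipocyte covariate, 1965 with DESeq2, 84 with library totals, and 0 with the chromaffin covariate. The number of all genes at an adjusted p below 0.1 is not given here. With DESeq2's size factors (179 of all genes called) or 10 counts in every mouse (256) 2 members were called. Without a filter (271 of 26017 genes called) or with all 12 mice in 1 fit (556 of 16262) 3 were. The median of the members stayed above 0 in each of these fits, at 0.08 (library totals) to 0.26 (adipocyte covariate). In icosapent ethyl–treated versus HFD mice, 0 members were called in every fit, including the replicate block (median -0.03). In icosapent ethyl–treated versus LFD mice, DESeq2 called 1 and every other fit 0. The causes were not tested, except that leaving out a mouse leaves fewer samples. No paired analysis was possible for comparisons with LFD mice because their numbers share only number 2 with the other groups.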

Other observations

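The mice with the highest *Pdp1* in each group were also those with the lowest overall level of the 34 genes. Relative to LFD, the geometric mean over all members was 0.920 in LFD mouse 2, 1.04 in HFD mouse 1, and 1.02 in icosapent ethyl–treated mouse 2. *Pdp1* was at 149, 79.1, and 116 CPM in these 3 mice. Their TMM factors, 1.14, 1.07, and 1.09, by which CPM are divided, were each the highest of their group. Their summed adrenal cortex markers, 49179, 61583, and 65026 CPM, were each the lowest of their group. These patterns were noticed after the values were seen, and the part of the scaling or of the cortex markers was not tested.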
